A study of Rattus norvegicus with 8 samples.

Results

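Aminoacyl-tRNA synthetases are the enzymes that load each amino acid onto its transfer RNA (tRNA). Most amino acids have a cytosolic and a separate mitochondrial enzyme, both encoded in the nucleus, and several cytosolic enzymes sit in a multi-synthetase complex held together by the scaffold proteins AIMP1 and AIMP2. When charged tRNA runs short, uncharged tRNA activates the kinase GCN2, phosphorylated eIF2 favours translation of the transcription factor ATF4, and ATF4 binds C/EBP-ATF composite elements of amino acid genes, among them genes of several cytosolic synthetases.

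The genes described here are 38 listed genes of these enzymes and scaffolds, taken by name: 20 cytosolic enzymes, 16 mitochondrial enzymes and 2 scaffold proteins. A gene was read from an array row that lists exactly 1 symbol, and from the row of highest mean signal where it had several. That gave 37 of the 38, among 22093 genes with such a row. The row that names Qars1, the cytosolic glutamine enzyme, lists several symbols and was left out. Pars2, the mitochondrial proline enzyme, had a mean log2 signal of 5.18, below the level of 5.32 required for testing, so 36 members stood among the 15465 genes tested: 19 cytosolic, 15 mitochondrial and 2 scaffold genes.

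RNA of whole newborn rat lung was measured in 8 samples on Affymetrix transcript arrays, 1 array per sample. The labels do not say whether a sample is 1 pup. By the sample titles, 4 samples came from control pups, whose dams ate a diet adequate in vitamin D (1000 IU per kg), and 4 from pups whose dams ate a diet lacking it (0 IU per kg). Calcium (0.5%) and phosphorus (0.4%) were equal in both diets, all dams were kept without ultraviolet light at Denver altitude, deficient dams were mated once serum 25-hydroxyvitamin D was under 10 ng/ml, and their mates were vitamin D replete. The labels call the pups day 0 newborns and place the harvest on day of life 1. They do not say how many litters they came from and give no strain or sex. The p-values therefore measure the spread between these lungs, which may be smaller than that between litters.

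Directions are given by sample title, as titled adequate and titled deficient, because the sources conflict. In the authors' deposited table every one of the 8 columns held, to within 5e-05 on the log2 scale, the values of the same-numbered array that carries the other group's title. If that naming is the right one, every direction below turns around. The titled groups also differed in ways other than the diet named in the title. The 3 Y-linked genes read far higher on titled adequate 1 and 2 than elsewhere: Ddx3y read 13.45, 13.43, 8.71 and 7.40 in log2 signal across titled adequate 1 to 4, and 5.71 to 5.90 on the lungs titled deficient. Titled adequate 3 and 4 thus lay between, above every lung titled deficient in all 3 genes, and whether these samples hold RNA of more than 1 pup was not tested. Of 9 tested neutrophil markers, 8 were higher in titled adequate, with a mean log2 signal over the 9 of 9.58 to 9.98 against 6.58 to 7.07, and Ltf, a further marker, lay below the level for testing. Cxcr2, 1 of the 8, had a titled deficient mean of 5.2, below that level, and passed the filter through titled adequate. Because of the Y-linked genes, results are also given without titled adequate 1 and 2. That fit keeps the neutrophil difference, since the mean over the 9 markers was 9.98 and 9.85 on titled adequate 3 and 4. The mean log2 signal of 7 lung epithelial markers was high on every array but differed between groups. It was 15.56 to 15.69 in titled adequate and 15.19 to 15.26 in titled deficient. Foxj1, 1 of the 7, read only 6.42 to 7.45.

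The C/EBP-ATF element is shown first because it was found at most of the cytosolic genes called below. The letters TTGCATCA were sought on both strands of the 300 bases around each gene start in RefSeq (GRCr8), 250 bases before the start and 50 from it on. They were present at 7 synthetase genes, 6 of which are printed below with the element in capitals and 5′ to 3′ in the direction of the gene. TGATGCAA in capitals is the same element read on the other strand.
Iars1, chr17:15193658-15193687, minus strand: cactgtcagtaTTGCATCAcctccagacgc
Mars1, chr7:65023752-65023781, minus strand: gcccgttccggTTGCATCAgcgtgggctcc
Cars1, chr1:208225334-208225363, minus strand: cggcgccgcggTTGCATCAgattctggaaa
Nars1, chr18:60275778-60275807, minus strand: cctaggtgatcTGATGCAAcgcttcagtca
Tars1, chr2:62114811-62114840, minus strand: ctggcgtcccgTTGCATCAgctggttagct
Yars1, chr5:146820183-146820212, plus strand: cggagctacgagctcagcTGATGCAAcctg

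All 7 encode cytosolic enzymes, and all 7 were among the genes called higher in titled deficient below. The element began 14 to 27 bases before the start of Nars1, Mars1, Iars1 and Tars1. In Cars1 and Yars1 it lay after the start, from positions 18 and 39. Of the 8 called cytosolic genes with a promoter entry, 7 held it, and Eprs1 did not. Of 9 cytosolic genes that did not pass, 0 held it, and so did 0 of 16 mitochondrial and 0 of 2 scaffold genes. For comparison, 266 of all 33469 promoters held it, or 0.795%. Among genes tested other than the synthetases and scaffolds, the share was 1.23% (11 of 897) for those higher in titled deficient and 0.589% (71 of 12058) over all. A match is a description of letters, not of binding, and no match says only that these letters are not in this window. The looser form TGATGNAA, which includes TGATGCAA, was found at the same 7 genes and in 3.98% of all promoters.

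The E-box CACGTG, a site of MYC and related factors, was sought in the same windows. It was present at 3 of 8 called cytosolic genes (Iars1 and Tars1 among them) and 2 of 9 that did not pass (Farsb and Vars1). Of the mitochondrial genes 1 of 16 held it (Ears2), and of all promoters 6.42%. Among genes tested other than the synthetases and scaffolds the share was 8.58%, and 8.47% for those higher in titled deficient. The stretch of Iars1 that holds both elements is shown to place them relative to each other, with CACGTG first and the C/EBP-ATF element second in capitals.
Iars1, chr17:15193653-15193762, minus strand: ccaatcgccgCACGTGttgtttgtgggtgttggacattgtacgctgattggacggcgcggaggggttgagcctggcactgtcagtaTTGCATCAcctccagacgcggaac

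**Figure D1:**
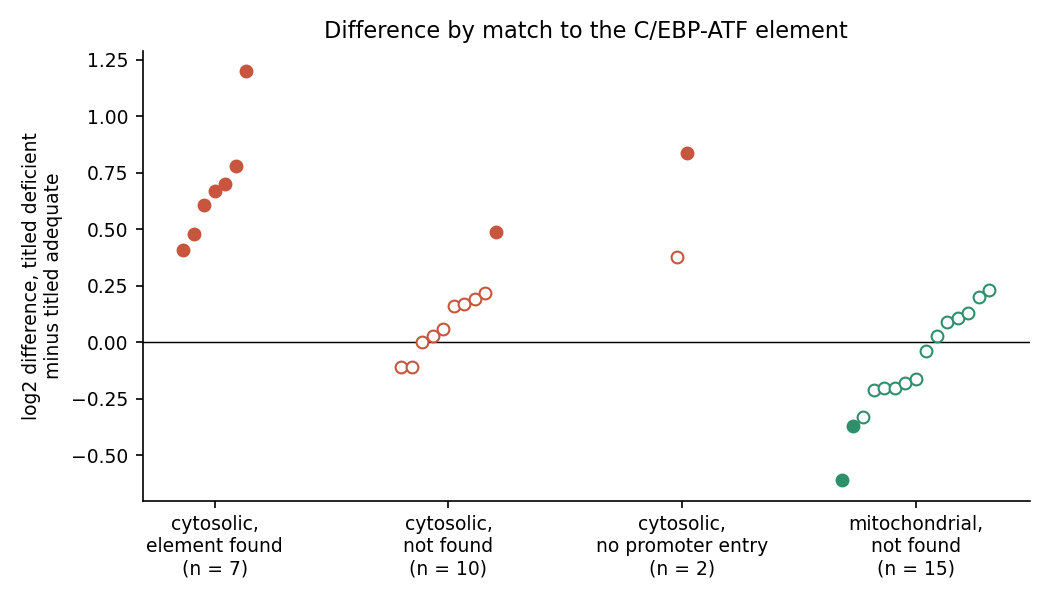
The log2 difference between the titled groups (vertical axis) for cytosolic and mitochondrial enzymes, split by whether the C/EBP-ATF element was found near the gene start. Filled points passed an adjusted p of 0.05 and open points did not. All 7 genes with the element are filled and lie at 0.41 or above.

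Of 19 cytosolic enzymes tested, 9 were higher in titled deficient, 0 were higher in titled adequate and 10 did not pass. Their median log2 difference, titled deficient minus titled adequate, was 0.38, against -0.02 over all genes tested. Of 15 mitochondrial enzymes tested, 0 were higher in titled deficient and 2 were higher in titled adequate, with a median of -0.16. Of the scaffolds, Aimp1 was higher in titled deficient. Over all 15465 genes, limma with Benjamini-Hochberg adjustment called 21.9% at an adjusted p of 0.05, 8.24% as higher in titled deficient and 13.7% as higher in titled adequate. The 10 genes called higher in titled deficient thus made 27.8% of the 36 members, and the cytosolic calls made 47.4% of the cytosolic genes. The 4 titled deficient lungs all lay above the 4 titled adequate lungs for 9 of the cytosolic genes and 0 of the mitochondrial ones (11.3% of all genes), and all below for 0 and 4 (16.7% of all genes). The difference between the cytosolic and mitochondrial sets was not tested. The sets also differed in signal. The mean log2 signal of the cytosolic set was 9.03 to 9.44 in titled adequate and 9.61 to 9.67 in titled deficient. That of the mitochondrial set was 7.24 to 7.51 and 7.24 to 7.29. Whether the lower signal of the mitochondrial set hid larger differences was not tested.

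**Figure D2:**
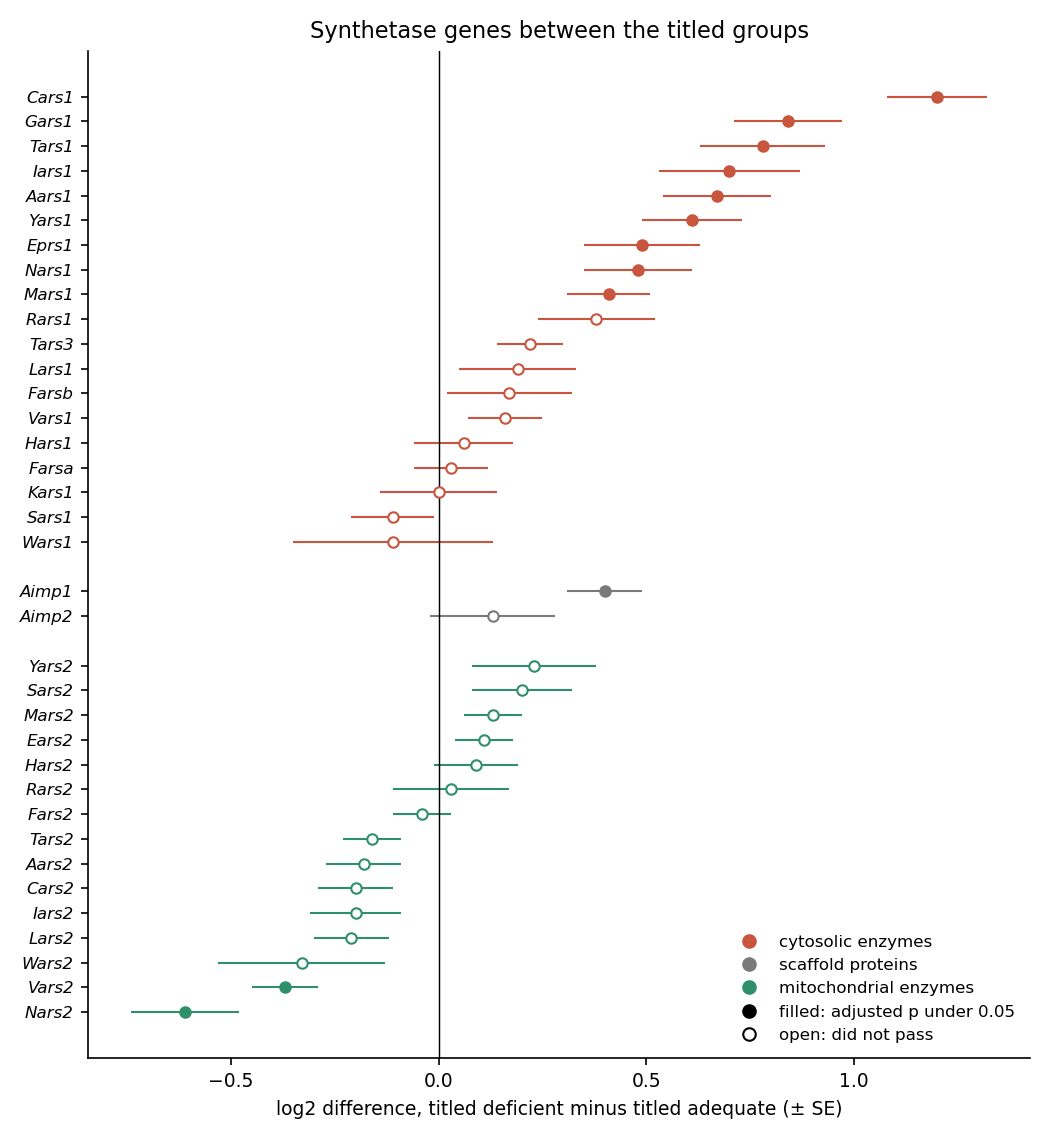
Log2 differences (horizontal axis, with SE) of the 36 genes tested, ordered within cytosolic enzymes, scaffold proteins and mitochondrial enzymes. The cytosolic enzymes run from -0.11 to 1.2 and the mitochondrial ones from -0.61 to 0.23.

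Cars1, which charges cysteine, had the largest difference of the members. Its log2 signals were 7.62, 7.86, 7.94 and 7.96 on titled adequate 1 to 4 and 8.92, 8.87, 9.27 and 9.11 on titled deficient 1 to 4. Every titled deficient lung stood well above every titled adequate lung, a 2.29-fold difference of means (log2 difference 1.2, SE 0.12, adjusted p = 0.000291). It was nearly as large without titled adequate 1 and 2, at 1.09 (adjusted p = 0.00235).

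Gars1 charges glycine and serves both the cytosol and mitochondria from a single gene. It read 9.22, 9.32, 9.70 and 9.68 in titled adequate and 10.19, 10.23, 10.35 and 10.49 in titled deficient, in log2 signal. The groups did not overlap and differed 1.79-fold (log2 difference 0.84, SE 0.13, adjusted p = 0.00326). Kars1, the lysine enzyme, also serves both compartments, and its groups overlapped: 9.87, 9.89, 10.08 and 10.13 against 10.26, 10.08, 10.01 and 9.62, with equal means of 9.99 (adjusted p = 0.998).

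Tars1, the cytosolic threonine enzyme, read 8.12, 8.33, 8.74 and 8.63 in titled adequate and 9.08, 9.13, 9.31 and 9.42 in titled deficient, again with no overlap. The difference was 1.72-fold (log2 difference 0.78, SE 0.15, adjusted p = 0.00642). Tars3, a second cytosolic threonine enzyme gene, read 5.93, 6.01, 6.18 and 6.03 against 6.25, 6.18, 6.23 and 6.39. Its groups met at 6.18, and the log2 difference of 0.22 (SE 0.08) did not pass (adjusted p = 0.0622). Its signals lay near the level required for testing, and whether a low signal hid a larger difference was not tested.

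Aars1 (alanine) read 8.99, 9.27, 9.53 and 9.51 against 9.86, 10.06, 10.13 and 9.93, a 1.59-fold difference (log2 difference 0.67, SE 0.13, adjusted p = 0.00789). Yars1 (tyrosine) read 8.54, 8.70, 8.96 and 9.0 against 9.30, 9.52, 9.51 and 9.31, a 1.53-fold difference (log2 difference 0.61, SE 0.12, adjusted p = 0.00805). In both genes titled adequate 1 and 2 were lower than titled adequate 3 and 4, and all 4 were below the lungs titled deficient. Nars1 (asparagine) read 10.62, 10.88, 11.19 and 10.86 against 11.33, 11.27, 11.33 and 11.56. Its titled adequate 3 came within 0.1 of the lowest titled deficient lung, and the 1.40-fold difference (log2 difference 0.48, SE 0.13, adjusted p = 0.0271) was lost without titled adequate 1 and 2 (0.35, adjusted p = 0.136).

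The remaining enzymes outside the complex did not pass: Vars1 (valine, log2 difference 0.16), Farsb and Farsa (the subunits of the phenylalanine enzyme, 0.17 and 0.03), Hars1 (histidine, 0.06), Sars1 (serine, -0.11) and Wars1 (tryptophan, -0.11). Wars1, an interferon-induced enzyme, varied widely within titled adequate, with log2 signals of 9.49, 9.95, 10.40 and 10.61, and read 10.43, 9.92, 9.92 and 9.76 in titled deficient. Its difference took a different sign by lungs kept, -0.50 without titled adequate 1 and 2 and 0.29 without titled adequate 3 and 4, and passed in neither fit (adjusted p = 0.111 and 0.361). The mean log2 signal of 16 interferon-induced genes ranged from 6.76 to 7.43 in titled adequate and from 6.51 to 6.85 in titled deficient. Of these 16, 3 were higher in titled adequate (18.8%, against 13.7% of all genes). They were Stat2, an interferon signalling factor (log2 difference -0.88), and the antiviral genes Ifit1 (-1.14) and Rsad2 (-0.69). Whether they bear on Wars1 was not tested.

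**Figure D3:**
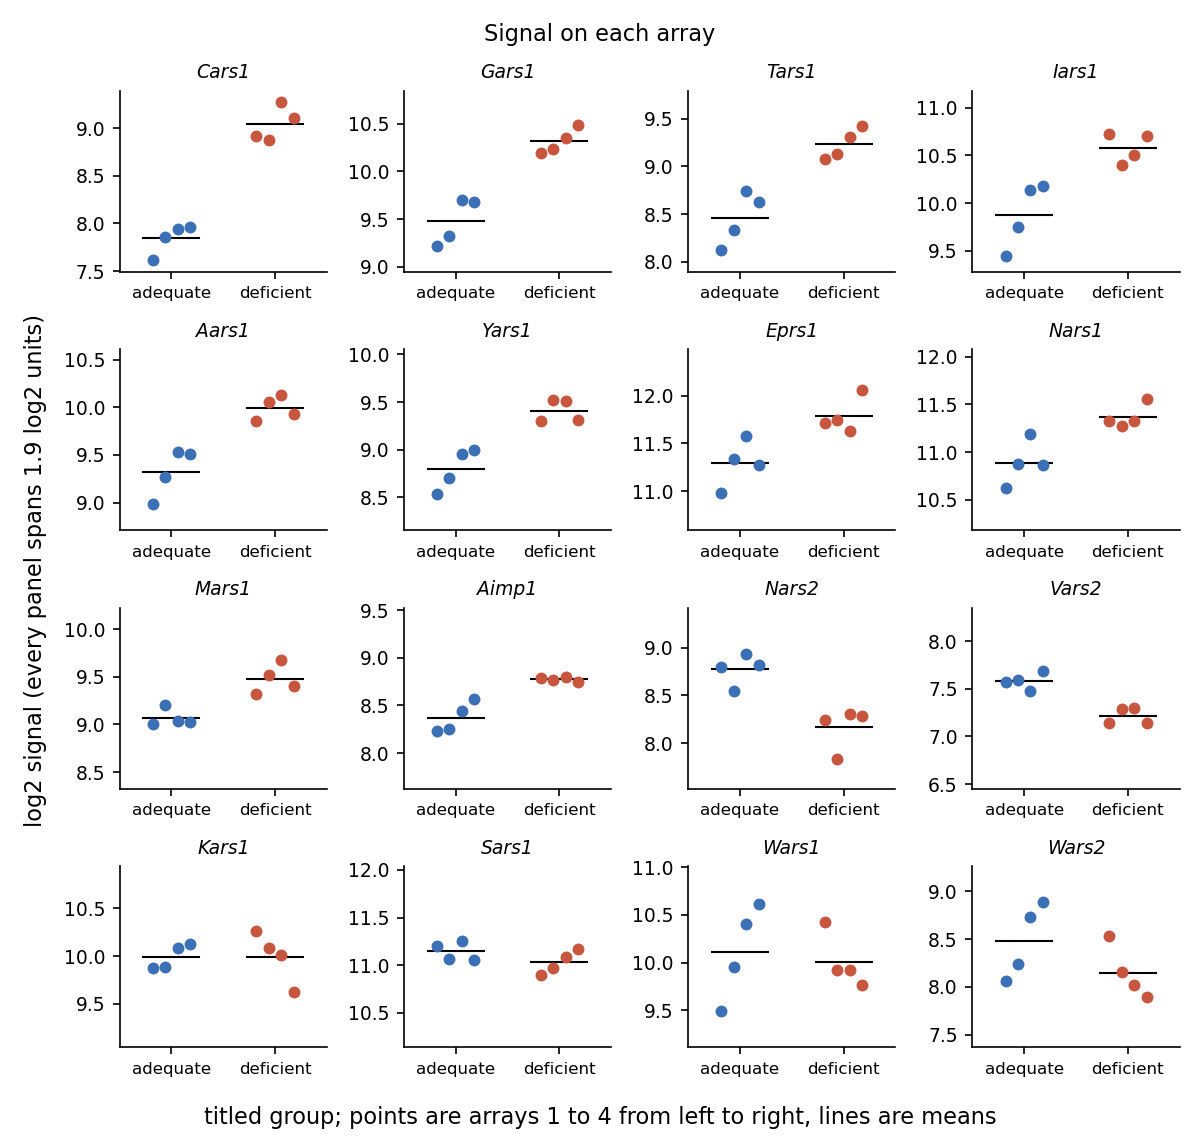
Log2 signal (vertical axis) on each of the 4 arrays of either titled group for the 12 genes called and 4 that were not. Points run from array 1 to array 4, lines are group means, and all panels span the same number of log2 units. In the 9 called cytosolic enzymes and Aimp1 no titled adequate point reaches a titled deficient point.

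Of 6 enzymes of the multi-synthetase complex measured, 3 were higher in titled deficient. Iars1 (isoleucine) read 9.45, 9.75, 10.14 and 10.18 in titled adequate and 10.72, 10.40, 10.51 and 10.70 in titled deficient, a 1.63-fold difference (log2 difference 0.70, SE 0.17, adjusted p = 0.0172). A second array row for Iars1, of lower signal, differed by more: 8.77, 9.17, 9.19 and 9.0 against 10.00, 9.91, 10.08 and 10.16, or 2.01-fold. Both rows separated the groups without overlap, although the first did not pass without titled adequate 1 and 2 (0.42, adjusted p = 0.0606).

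Eprs1, which charges both glutamate and proline, read 10.98, 11.34, 11.58 and 11.27 against 11.71, 11.75, 11.63 and 12.06, a 1.41-fold difference (log2 difference 0.49, SE 0.14, adjusted p = 0.0369). Its nearest lungs, titled adequate 3 and titled deficient 3, lay close together, and without titled adequate 1 and 2 it did not pass (0.36, adjusted p = 0.162). Mars1 (methionine) read 9.01, 9.20, 9.04 and 9.03 against 9.32, 9.52, 9.68 and 9.40, a 1.32-fold difference (log2 difference 0.41, SE 0.10, adjusted p = 0.0198) that was as large without those lungs (0.44, adjusted p = 0.0469) but missed the threshold without titled adequate 3 and 4 (0.37, adjusted p = 0.0848). Rars1 (arginine) had a log2 difference of 0.38 (SE 0.14, adjusted p = 0.0804) and Lars1 (leucine) one of 0.19 (SE 0.14, adjusted p = 0.353), and neither passed.

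Of the complex's scaffolds, Aimp1 read 8.23, 8.25, 8.44 and 8.57 in titled adequate and 8.79, 8.77, 8.80 and 8.75 in titled deficient. Its 4 titled deficient lungs were nearly equal (SD 0.02) and all above titled adequate (log2 difference 0.40, SE 0.09, adjusted p = 0.0164). It did not pass without titled adequate 1 and 2 (0.27, adjusted p = 0.086). Aimp2 ranged from 7.20 to 7.93 in titled deficient alone and was not called (0.13 on the log2 scale, SE 0.15, adjusted p = 0.555).

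Of the mitochondrial enzymes tested, the 2 called higher in titled adequate made 13.3%, close to the 13.7% of all genes, so this share is no result about these enzymes as a set. Nars2 (asparagine) read 8.80, 8.55, 8.93 and 8.82 in titled adequate and 8.24, 7.83, 8.31 and 8.28 in titled deficient. The lungs titled adequate all lay higher, by 1.53-fold on average (log2 difference of -0.61 with an SE of 0.13, adjusted p = 0.0105), and a second row gave 1.56-fold. Vars2 (valine) read 7.57, 7.59, 7.48 and 7.69 against 7.14, 7.29, 7.30 and 7.14, with titled adequate again higher, by 1.29-fold (log2 difference of -0.37 with an SE of 0.08, adjusted p = 0.0122). Both also passed without titled adequate 1 and 2 (-0.71, adjusted p = 0.018, and -0.37, adjusted p = 0.0437), and Nars2 missed the threshold without titled adequate 3 and 4 (-0.51, adjusted p = 0.0577).

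Aars2 (alanine) and Tars2 (threonine) also separated the groups but did not pass. Aars2 read 6.70, 6.73, 6.78 and 6.95 against 6.63, 6.70, 6.65 and 6.44, where titled adequate 1 and titled deficient 2 met to within rounding (log2 difference -0.18, adjusted p = 0.147). Tars2 read 6.80, 6.82, 6.92 and 6.94 against 6.70, 6.77, 6.78 and 6.59 (log2 difference -0.16, adjusted p = 0.13). Lars2 (leucine) overlapped, with 6.91, 6.91, 7.12 and 7.20 against 6.93, 6.88, 6.68 and 6.82 (log2 difference -0.21, adjusted p = 0.138).

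Of the other mitochondrial enzymes that did not pass, Wars2 (tryptophan, log2 difference -0.33), Iars2 (isoleucine, -0.20), Cars2 (cysteine, -0.20) and Fars2 (phenylalanine, -0.04) read lower in titled deficient. Yars2 (tyrosine, 0.23), Sars2 (serine, 0.20), Mars2 (methionine, 0.13), Ears2 (glutamate, 0.11), Hars2 (histidine, 0.09) and Rars2 (arginine, 0.03) read higher. Wars2 had log2 signals of 8.06, 8.24, 8.73 and 8.89 in titled adequate and 8.53, 8.16, 8.02 and 7.89 in titled deficient. As in Wars1, titled adequate 1 and 2 were low and titled deficient 1 was the highest of its group. Without titled adequate 1 and 2 Wars2 passed (-0.66, adjusted p = 0.0372), and without titled adequate 3 and 4 its difference was 0.00.

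For 13 amino acids both the cytosolic and the mitochondrial enzyme were tested, and the cytosolic difference was the higher one for 11 of them. The exceptions were histidine, where both were near 0, and serine (-0.11 for Sars1 and 0.20 for Sars2). In 7 of the 13 the cytosolic enzyme was called higher in titled deficient, and in 0 the mitochondrial one was. Asparagine was the 1 amino acid whose enzymes were called in opposite directions, Nars1 at 0.48 and Nars2 at -0.61. The difference within each pair was not tested.

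**Figure D4:**
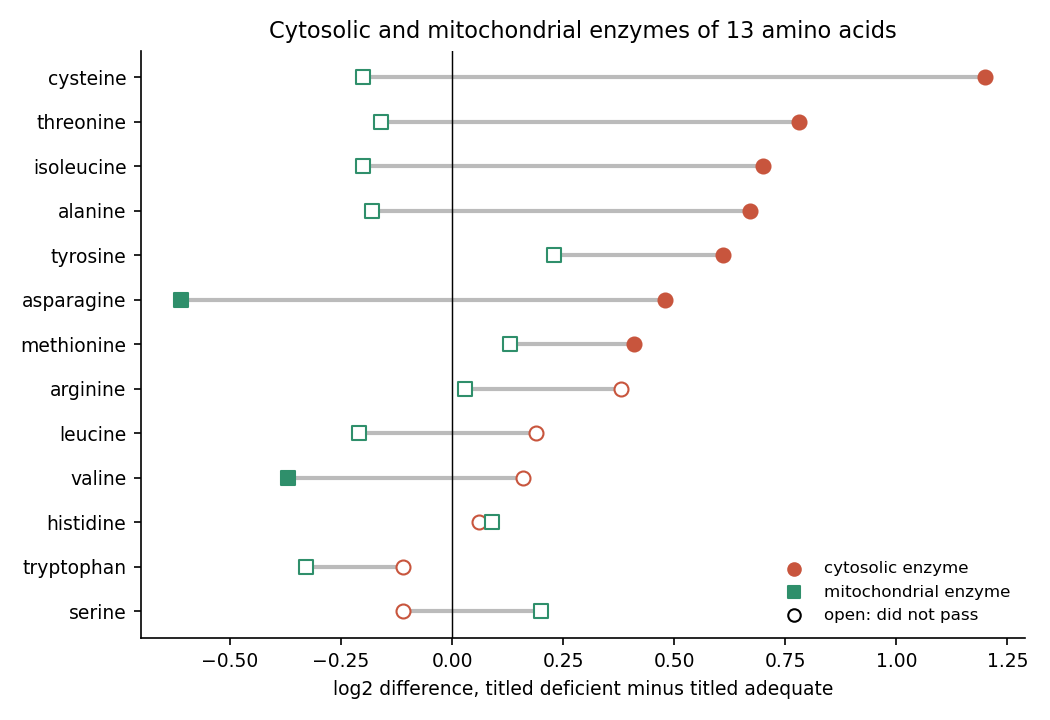
Log2 differences (horizontal axis) of the cytosolic enzyme (circles) and the mitochondrial enzyme (squares) for 13 amino acids, with filled symbols for genes that passed. The circle lies to the right of the square in 11 of 13.

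With each gene centred on its mean over 8 arrays, the median of the 19 cytosolic enzymes was -0.43 on titled adequate 1, no higher than 0.03 on the other lungs titled adequate, and 0.12 to 0.24 on those titled deficient. For 15 of the 19 titled adequate 1 was the lowest of all 8 arrays (78.9%), against 14.3% of all genes tested and 3 of 15 mitochondrial enzymes. In the 9 called cytosolic enzymes the groups did not overlap, so their lowest array had to be titled adequate. The 78.9% thus partly restates the group difference. The corresponding median of the mitochondrial enzymes ranged from -0.09 to 0.22 in titled adequate and from -0.10 to -0.01 in titled deficient, so these groups overlapped.

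**Figure D5:**
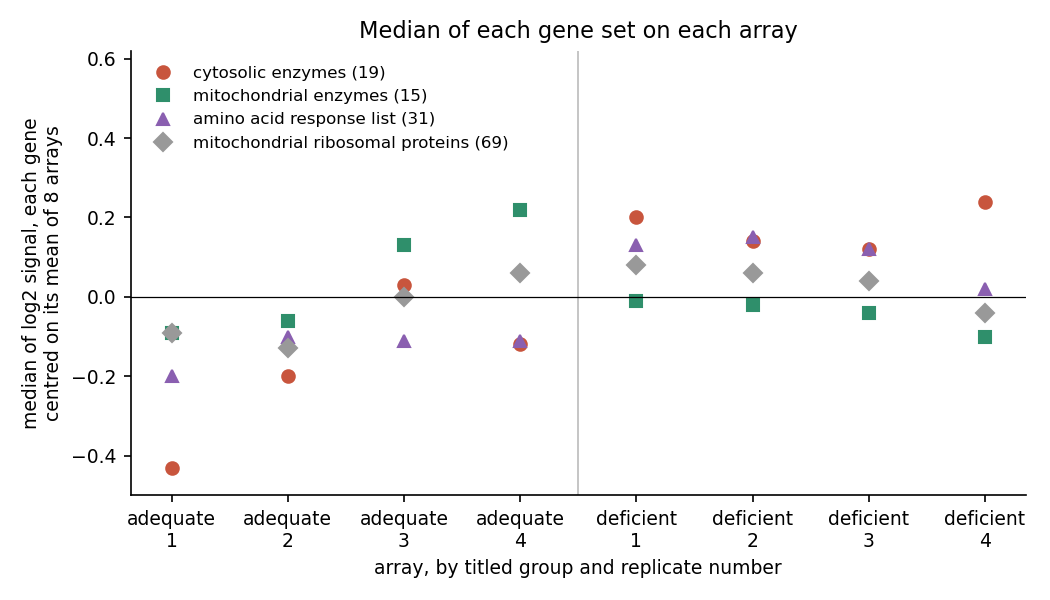
Median over each gene set of the log2 signal centred per gene (vertical axis) on each array (horizontal axis). The cytosolic enzymes are lowest on titled adequate 1, at -0.43, and lie between 0.12 and 0.24 on the lungs titled deficient.

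Without titled adequate 1 and 2, the arrays of highest Y-linked signal, a smaller Y-linked difference remained, since titled adequate 3 and 4 also lay above titled deficient. In that fit the cytosolic median was 0.18 and the members called higher in titled deficient numbered 6 in place of 10: Mars1, Aars1, Cars1, Gars1, Tars1 and Yars1. Of these, 5 hold the C/EBP-ATF element, and Gars1 has no entry in the promoter table used. Of the members no longer called in that fit, Iars1 and Nars1 also hold it, and Eprs1 and Aimp1 do not. Single arrays mattered too. When each was left out in turn, Eprs1 passed in 2 of 8 fits (without titled adequate 3 or titled deficient 3), Nars1 in 1 (without titled adequate 3) and Mars1 in 5 (not without titled adequate 4, titled deficient 2 or titled deficient 3). Rars1 and Tars3 passed in 1, the fit without titled adequate 3. The part of the Y-linked signal and of the neutrophil markers in the other calls was not tested. In whole tissue, a change in cell makeup and a change per cell cannot be told apart.

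Other genes of the amino acid response were read from a list of 32 that includes ATF4, amino acid enzymes and transporters. Of 31 tested, 12 were higher in titled deficient (38.7%, against 8.24% of all genes) and 4 in titled adequate (12.9%, against 13.7%). The 12 include Chac1 and Phgdh, with titled adequate means of 4.81 and 5.26, below the level for testing. These genes passed the filter through titled deficient, where they were higher. The other 15 did not pass, and the median log2 difference of the 31 was 0.24. Atf4 itself read 10.12, 10.53, 9.98 and 10.05 in titled adequate and 11.19, 11.01, 11.15 and 10.63 in titled deficient, 1.77-fold higher with no overlap (log2 difference 0.83, SE 0.16, adjusted p = 0.00692). Asns, asparagine synthetase, was 1.65-fold higher (adjusted p = 0.0151). The mitochondrial folate enzyme gene Mthfd2 was 3.05-fold higher, the cationic amino acid transporter gene Slc7a1 1.95-fold and the glutathione-degrading enzyme gene Chac1 at least 2.27-fold, a bound because its titled adequate signals lay below the level for testing and were set to it.

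Other genes of that list went the other way. The serine synthesis gene Psat1 (log2 difference -0.92), the neutral amino acid transporter gene Slc1a4 (-0.80), Cebpb (-0.57) and the stress factor gene Atf3 (-1.19) were higher in titled adequate, and Ddit3 (0.12) and Trib3 (0.19), genes of the same stress response, did not pass. The C/EBP-ATF element was present at 5 of 28 list genes with a promoter entry, namely Chac1, higher in titled deficient, Slc1a4, higher in titled adequate, Pycr1 and Nupr1, which did not pass, and Fgf21, which was too low to test. Of the 9 called higher in titled deficient with an entry, 1 held it. Eif2ak4, which encodes GCN2, did not pass (log2 difference -0.07, SE 0.07). Of 17 eIF2 and eIF2 kinase genes, 3 were higher in titled deficient (17.6%, against 8.24% of all genes). These were the eIF2 subunit genes Eif2s2 (0.68) and Eif2s1 (0.42) and the phosphatase subunit gene Ppp1r15b (0.38). Ppp1r15a, the inducible phosphatase subunit that reverses eIF2 phosphorylation, was higher in titled adequate (-1.21).

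Other genes of translation were counted in the same way, beside 8.24% of all genes tested higher in titled deficient and 13.7% higher in titled adequate. Of 25 genes of tRNA maturation and export, 3 were higher in titled deficient, namely Trmt6, a subunit of a tRNA methyltransferase (log2 difference 0.88, adjusted p = 0.00583), Thg1l, which adds a guanosine to histidine tRNA (0.40), and the tRNA export receptor gene Xpot (0.41). Xpo5, another export receptor gene, was higher in titled adequate (-0.43). The shares of these 25 genes were 12% higher in titled deficient and 4% higher in titled adequate. Of 8 elongation factor genes, Eef1a2 (at least 1.16-fold, a bound with 2 of its 4 titled adequate signals below the level for testing and set to it) was higher in titled deficient, the kinase gene Eef2k (-0.63) was higher in titled adequate and Eef2 (-0.29) did not pass.

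Of 69 mitochondrial ribosomal protein genes, 6 were higher in titled deficient (8.7%, near the 8.24% of all genes). In titled adequate 2 were higher (2.9%, against 13.7% of all genes), and the median of the 69 was 0.05. Mrpl47 (0.69) was the first of the 69 by p, followed by Mrpl53 (-0.61) and Mrpl36 (-0.78). Of 16 genes of mitochondrial translation and tRNA modification, only Mto1 (0.20) was higher in titled deficient (6.25%), and Mtif2 (0.46) and Mtfmt (-0.32) did not pass. Qrsl1, a subunit of the amidotransferase that makes mitochondrial glutamine tRNA without a synthetase of its own, did not pass either (0.16, SE 0.10).

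The 5 genes most alike to the median profile of the 9 called cytosolic enzymes were Trmt6, Nepro, Slc25a46, Usp54 and Utp14a, with Pearson correlations of 0.978 to 0.982 over 8 arrays. The arrays fall into the titled groups, which every such profile shares, so the correlation is a description with no p. Of these, Usp54 did not pass the test between groups (adjusted p = 0.163).

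Markers of other tissues and cells gave the following log2 differences. In the epithelial list 4 of 7 were higher in titled adequate (57.1%, against 13.7% of all genes), among them Foxj1 (-0.84), Nkx2-1 (-0.85) and Sftpb (-0.38). Sftpa1 (-0.37), Scgb1a1 (0.13) and Sftpc (-0.01) did not pass. The neutrophil genes Mmp8, S100a9 and S100a8 differed by -3.79, -4.49 and -3.71. Of macrophage markers, Csf1r (-0.89) and Adgre1 (-0.98) were higher in titled adequate and Marco (0.25) in titled deficient. Of endothelial markers Cdh5 (0.54) was higher in titled deficient, and Kdr and Pecam1 did not pass. Of mesenchymal markers Pdgfra (-0.65) was higher in titled adequate, and Col1a1 and Acta2 did not pass. Of 6 erythroid genes (Slc4a1, Ahsp and Hbb first), 3 heart genes (Actc1, Myl7 and Tnnt2) and 3 liver genes (Alb, Ttr and Apoa1), 0 passed in limma, with 1 at an unadjusted p under 0.05. That was Alb, the liver albumin gene, which read 5.69, 10.90, 8.64 and 9.38 in titled adequate and 5.90 to 6.81 in titled deficient (log2 difference -2.34, SE 0.87, adjusted p = 0.0808). Titled adequate 2, 3 and 4 stood far above the other 5 arrays. Of 10 cell cycle genes, Ccna2 (0.91) and Pcna (0.79) were higher in titled deficient (20%, against 8.24% of all genes). Aurkb (-1.31) was higher in titled adequate (10%, against 13.7%). The other 7 did not pass, and 9 of the 10 differences were positive. The part of any of these in the synthetase differences was not tested.

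Among the 2312 rows of the authors' deposited table are 8 of the members. In the authors' deposited table the fold sizes are 2.30 for Cars1, 1.77 for Gars1, 1.70 for Tars1, 1.60 for Iars1, 1.58 for Aars1, 1.52 for Yars1, 1.52 for Nars2 and 1.29 for Vars2. By its column names the 6 cytosolic enzymes are lower and the 2 mitochondrial ones higher in the deficient group, opposite to the sample titles.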

How the data were processed

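The deposited value table holds 1 log2 signal per transcript cluster and array. Per the labels, the authors ran Expression Console at the gene level and summarised signals by its SST-RMA method. In the authors' deposited table, log2 values stand beside a fold score whose sign gives the direction, per the file headers; its 8 linear columns were not used. No array coordinates are printed, since the build is not stated in the labels or headers read here.

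Of 70580 rows, 1738 control rows were left out. Genes came from rows with 1 symbol in the platform annotation, by the row of highest mean. Genes below percentile 30 of these means, a log2 level of 5.32, were not tested. A linear model per gene (lmFit, eBayes with a variance trend; limma 3.58.1, R 4.3.3) compared 4 arrays with 4 over the 15465 genes left, 2-sided, and p-values were adjusted over all of them by the Benjamini-Hochberg method. Errors of differences are moderated standard errors. The fit was tested on simulated data with 50 changed genes of each size. It recovered 6% of them at 1.2-fold, 70% at 1.5-fold and 90% at 2-fold. Far fewer genes were changed there than the 3390 called in the data, so the adjusted threshold was stricter in the simulation. Recovery in the data may thus be higher than these shares. A gene that did not pass may still differ by a small fold. The number of arrays limits the precision.

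Values on every array are printed for members that passed or whose groups did not overlap and for Wars1, Kars1, Gars1, Lars2 and Tars3; the 3 genes of smallest p are named from other lists. Arrays are shown for Wars2, Atf4, Alb and Ddx3y, and other list genes are named, by choice after their values were seen. Members and lists were chosen with earlier results of these data known. Promoter sequences are those of RefSeq (GRCr8), with entries for 36 of the 38 genes; 1 promoter sequence that held the element is not reported here. Alternatives were the level filter, all rows or all transcript clusters, 3 further normalizations, no variance trend, the replicate number as a block and each array left out. Added after seeing the data were the same normalizations over the genes tested and the arrays left out in pairs.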

Additional observations from a re-analysis of the deposited data

Results flagged for a closer look

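Nars2 on titled deficient 2 lay far below the other lungs of its group, with a log2 signal of 7.83 against 8.24 to 8.31 (gap over range 0.861). Pars2, which was too low to test, read 5.05 on titled adequate 1 against 5.20 to 5.21 on the other lungs titled adequate (gap over range 0.946). These were the 2 found among 74 groups of 4 arrays looked at, and chance gives about 1 in 20.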

How the results depend on the processing

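None of the 12 calls on synthetase and scaffold genes changed sign in any of the 22 alternatives, and Aars1, Cars1, Gars1, Tars1 and Yars1 passed in every one of them. The members higher in titled deficient, 10 as reported, numbered 6 with all transcript clusters tested, 6 with the replicate number as a block and 6 without titled adequate 1 and 2. They numbered 7 to 12 (cytosolic enzymes 6 to 11) when 1 array was left out, with 7 without titled adequate 4 or titled deficient 2. Members higher in titled adequate were 2 in each of those single-array fits, and 1 with the replicate block or without titled adequate 3 and 4. The replicate block called 1758 genes in place of 3390 (561 higher in titled deficient and 1197 in titled adequate), but same-numbered arrays did not deviate together (correlations of -0.35 to 0.04), so the numbers were not taken as pairs. All genes called ranged from 2178 (without titled deficient 2) to 3134 when 1 array was left out, those higher in titled deficient from 737 to 1189 and those higher in titled adequate from 1441 to 1945.

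Scaling moved the balance of all calls, while members higher in titled deficient numbered 8 to 15 and those higher in titled adequate 2 under each scaling. Genes higher in titled adequate made 62.4% of calls as deposited, 71.3% after quantile normalization, 75.9% after cyclic loess and 80.2% after median centring over all rows, but 46.4%, 55.4% and 32.9% when these were computed over the genes tested. The median of all genes, -0.018 as deposited, was -0.089 with centring over all rows and 0.09 with centring over genes tested. Genes higher in titled deficient numbered 712 and 2854 under these centrings and 3018 with all transcript clusters, and those higher in titled adequate 1401 with centring over genes tested. With that centring 2 mitochondrial genes were higher in titled deficient (2 also without titled adequate 3 and 4) and the mitochondrial median was -0.06. The cytosolic median stayed between 0.30 and 0.40 and the mitochondrial one between -0.19 and -0.12 when 1 array was left out; without titled adequate 1 and 2 the cytosolic median was 0.18, and without titled adequate 3 and 4 the mitochondrial one was 0.00.

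Sign changes touched 9 genes that did not pass. Kars1 was 0.01 after quantile normalization, 0.09, 0.05 and 0.11 after quantile, loess and centring over genes tested, -0.09 to 0.12 with 1 array left out and 0.11 without titled adequate 3 and 4. Centring over all rows gave -0.04 for Farsa, -0.01 for Hars1 and -0.04 for Rars2, and leaving out 1 array gave 0.00 to 0.09, -0.02 to 0.12 and -0.05 to 0.10. Fars2 was 0.02 and 0.07 after quantile and centring over genes tested. Without titled adequate 1 and 2 Farsb was -0.10, Hars1 -0.09, Rars2 -0.18 and Yars2 -0.03. Without titled adequate 3 and 4 Wars1 was 0.29, Fars2 0.03 and Wars2 0.00, and Wars1 was 0.00 with centring over genes tested and -0.31 to 0.06 with 1 array left out. The causes were not tested.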
